A study of Mus musculus with 6 samples.

Results

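The transcripts described here are those of 10 SOX transcription factor genes other than Sox2: Sox4, Sox5, Sox6, Sox7, Sox9, Sox11, Sox12, Sox13, Sox17 and Sox18. Every probe named after one of these genes was taken, which gave 28 probes (37 spots) of the 41174 probes on a mouse Agilent array that are not controls. Once named by accession where possible, the array's probes carry 27617 gene or transcript names in all. The samples were mouse embryonic fibroblasts at day 8 of reprogramming, all infected with factors abbreviated SKO. The 3 groups were SKO with Gadd45a, SKO with G39A (per the labels a negative mutant of Gadd45a) and SKO with the control Flag. Each group had 2 arrays, numbered replicate 2 and replicate 1, of Cy3-labelled total RNA. The labels do not spell out SKO, and they do not say whether the replicate numbers stand for separate fibroblast preparations, infections or labellings. Both numbers are therefore treated as arrays of one group, and every p-value measures only the spread between these arrays, which may be technical.

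SOX proteins bind DNA through an HMG box, a domain that sits in the minor groove and bends the helix, and most of them act beside a partner factor. The family is sorted by the likeness of this domain. Sox4, Sox11 and Sox12 form the SoxC group, known for activating genes in neural and mesenchymal progenitors. Sox5, Sox6 and Sox13 form the SoxD group, which lacks a transactivation domain of its own and works with or against other SOX factors. Sox9 is a SoxE factor, the main switch of cartilage formation, where Sox5 and Sox6 assist it. Sox7, Sox17 and Sox18 form the SoxF group of endothelial cells, and Sox17 is also a factor of the endoderm. Sox2, which is used in reprogramming, belongs to the SoxB group.

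At least 2 of the 28 probes, by general knowledge of these genes, lie in the coding sequence of the HMG box, where the family is most alike. They are shown because one of them, the Sox11 probe, goes against the other probes of its gene. The capitals mark the longest run that both hold without a break, 10 bases. Each is 60 bases long, 5′ to 3′ in the sense of the transcript, as the array files give it.
Sox11 A_52_P608516: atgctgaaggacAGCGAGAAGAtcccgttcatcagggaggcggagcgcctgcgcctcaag
Sox9 A_51_P451606: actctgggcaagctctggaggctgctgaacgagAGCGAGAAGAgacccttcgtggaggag
The files place the Sox11 probe at chr12:28026950-28027009 on the minus strand and the Sox9 probe at chr11:112644310-112645162 on the plus strand, both in mouse build mm9. The Sox9 span is longer than its 60 bases, so that probe crosses a splice junction. Aligned without gaps, the 2 probes matched at 29 of 39 overlapping bases. The 10-base run occurred in 7 of the 41174 probes. The Sox11 probe also shared a run of 12 bases, and 35 of 51 aligned bases, with the one probe of Sox19 (A_51_P155736), which was looked at after its values were seen. That probe read 19.27 (Gadd45a), 13.27 (G39A) and 21.66 (Flag) in replicate 2, against 17.08 (Gadd45a), 15.04 (G39A) and 17.16 (Flag) in replicate 1, and only the Flag array of replicate 2 was well above background. Probes were compared only with other SOX probes and not with whole SOX transcripts. How far RNA of one SOX gene binds the probe of another on this array was not tested.

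The share of spots that the scanner software marked well above background was 57.0% to 62.9% per array, and no spot was saturated. Arrays of the same replicate number were far more alike (r 0.989 to 0.993 over probes) than arrays of the same group (r 0.922 to 0.924), and the first principal component, with 85.1% of the variance, parted replicate 2 from replicate 1. All replicate 2 arrays were on one slide with one scan. The Gadd45a and Flag arrays of replicate 1 shared another slide, and the G39A array of replicate 1 was on a slide of its own, so slide and replicate number cannot be told apart for replicate 2. Pou5f1, which encodes the reprogramming factor Oct4, read 4.216 (Gadd45a), 4.4 (G39A) and 3.569 (Flag) in replicate 2, none well above background, against 5153 (Gadd45a), 6363 (G39A) and 3851 (Flag) in replicate 1. Of 16 embryonic fibroblast markers, 16 were well above background on all replicate 2 arrays and 15 on all replicate 1 arrays.

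Signals below are the processed signals of the scanner software, in arbitrary units, averaged over a probe's unmarked spots. They compare one probe between arrays and not one probe with another. Differences are on the log2 scale after each array's 75th percentile was subtracted. Of the 28 probes, 9 were well above background on all 6 arrays and 8 on none. The 9 probes belong to 5 genes, Sox4, Sox6, Sox9, Sox11 and Sox13. Sox17 was the one gene with no probe well above background on any array.

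**Figure D1:**
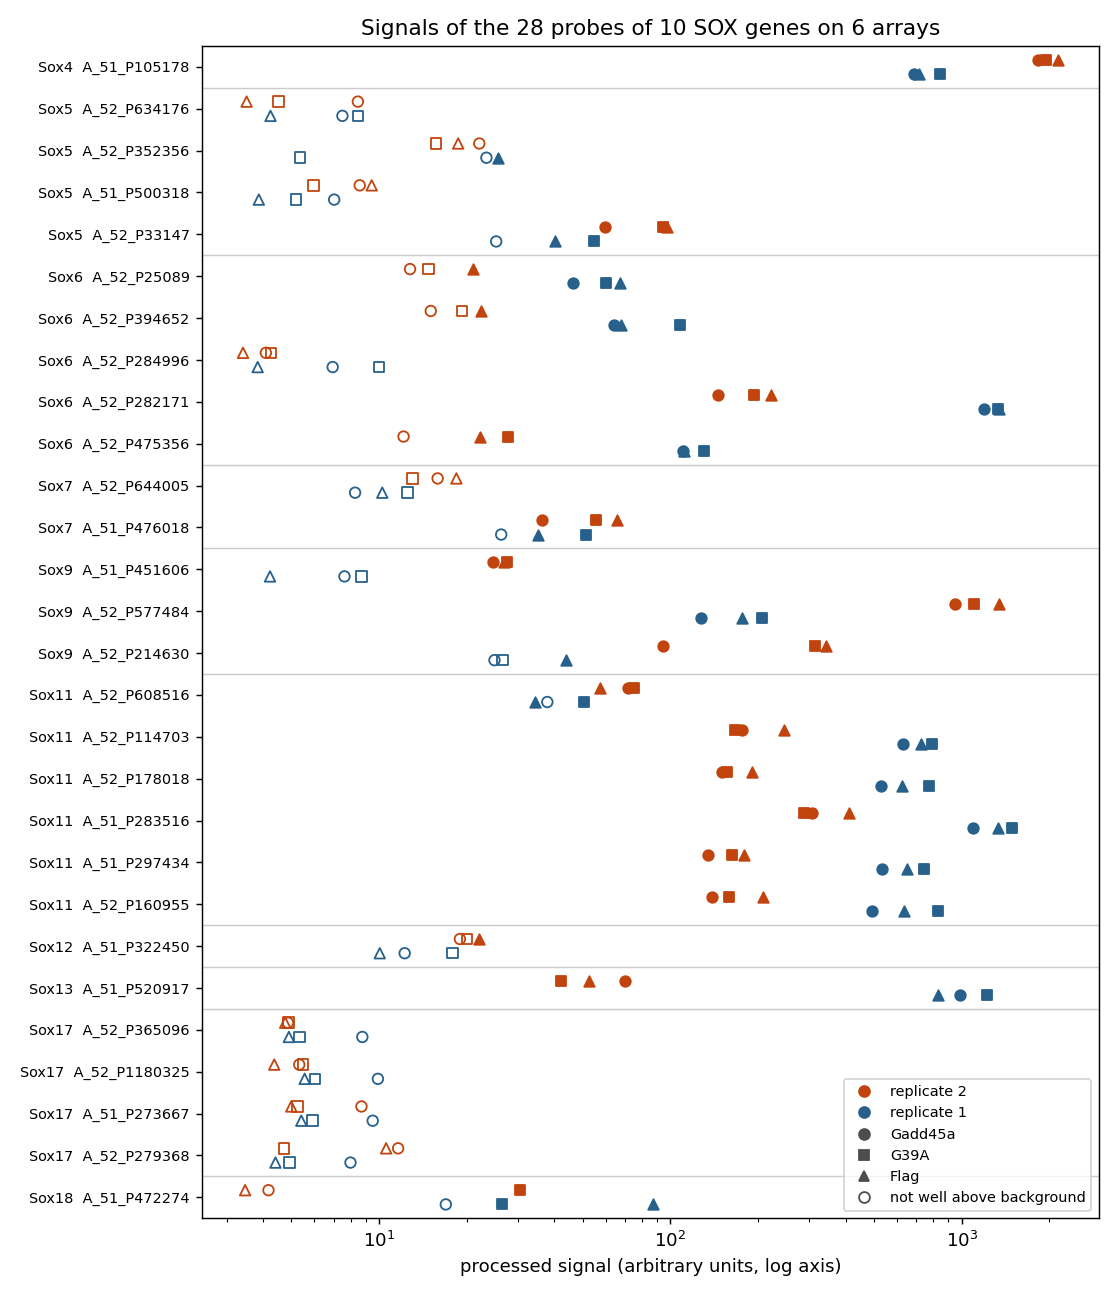
Processed signal (horizontal, arbitrary units, log axis) of each of the 28 probes (rows) on the 6 arrays; orange marks are replicate 2 and blue marks replicate 1, the shape gives the group, and open marks were not well above background. For Sox6, Sox13 and 5 of 6 Sox11 probes the blue marks lie to the right, for Sox4 and Sox9 the orange marks do, and the 4 Sox17 probes are open on all arrays.

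The SOX genes split in both directions between replicate 2 and replicate 1. In replicate 2 Sox4, Sox5, Sox7 and Sox9 were higher, Sox6 and Sox13 were lower, and Sox11 was lower by 5 of its 6 probes and higher by the remaining one. All 17 probes that could be tested passed the threshold of 0.05 (limma with group as a term, Benjamini-Hochberg adjustment over 24691 probes), 7 higher and 10 lower, with a median log2 difference of -1.71, also with the one Sox9 probe that gives only a bound set to its limit. Over all probes tested, 57.3% passed, 32.6% higher and 24.7% lower, with a median of 0.10. The SOX median by probe leans on Sox11 and Sox6, which have the most probes. By the brightest probe of each of the 7 tested genes, 4 were higher and 3 lower, with a median of 0.67. Over all genes counted that way, 33.8% were higher and 25.3% lower, with a median of 0.11. A probe was tested if all 3 arrays of a replicate number, either one, marked it well above background, so the filter favours a difference among the dimmer members, which entered through the number where they are bright. Among the 9 probes that were well above background on all 6 arrays, 2 were called higher and 7 lower, and 9 differed at least 2-fold. Of the 21637 such probes on the array, 54.5% were called, 31.6% higher and 22.8% lower, and 17.6% were called and at least 2-fold apart. These 9 are not independent, since 5 of them measure Sox11. In 16 of the 17 probes the replicate 2 and replicate 1 arrays did not overlap, as in 68.2% of all probes tested. Differences of the dimmer probes and of Sox13 were smaller under another background correction, normexp with an offset of 50. They were 0.59 for Sox5, 0.31 for Sox7 and 0.46 for the Sox11 probe A_52_P608516. The 3 dimmer Sox6 probes gave -0.43 to -0.94, the Sox9 probe A_52_P214630 1.69, and Sox13, bright on all 6 arrays, -2.97. For the Sox9 probe given as a bound, the lowest difference in any setting, on measured signals, was 0.58. These stayed past the threshold.

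Sox4, the SoxC factor of many progenitor cells, has 1 probe (chromosome 13, 29044066 to 29044125, mm9, starting at base 1426 of its transcript). It read 1830 (Gadd45a), 1951 (G39A) and 2138 (Flag) in replicate 2, against 688.5 (Gadd45a), 845.4 (G39A) and 713.2 (Flag) in replicate 1. Every replicate 2 array was above every replicate 1 array. The log2 difference was 1.57 ± 0.08 (SE, 3 arrays against 3), 2.98-fold, with a limma adjusted p of 0.000248. It was 1.60 in Gadd45a, 1.49 in G39A and 1.63 in Flag, so it was of like size in each group.

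Sox11, the second SoxC gene, has 6 probes, of which the files place 5 on chromosome 12 and give the sixth, A_52_P114703, no position. Its brightest probe, A_51_P283516 (28022857 to 28022916), starts at base 4667 of the transcript. It read 306.5 (Gadd45a), 287.3 (G39A) and 409.8 (Flag) in replicate 2, against 1098 (Gadd45a), 1484 (G39A) and 1336 (Flag) in replicate 1. The groups of arrays did not overlap, and the log2 difference was -1.80 ± 0.12 (3.47-fold lower in replicate 2, limma adjusted p 0.000519). The 4 other probes that are bright on all arrays gave -1.71 to -1.83, close to that value. Of these, 3 start at bases 2141 to 7983 of the same transcript.

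The HMG-box probe of Sox11 printed above, which starts at base 574, went the other way. It read 71.51 (Gadd45a), 74.89 (G39A) and 57.51 (Flag) in replicate 2, against 37.85 (Gadd45a), 50.49 (G39A) and 34.22 (Flag) in replicate 1. It was 0.92 ± 0.10 higher in replicate 2 (1.89-fold, limma adjusted p 0.00206). The groups did not overlap, and the sign was the same in all 3 groups, 1.11 in Gadd45a, 0.85 in G39A and 0.80 in Flag. On the Gadd45a array of replicate 1 the probe was not well above background.

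Sox12, the third SoxC gene, has 1 probe. It read 18.97 (Gadd45a), 20.05 (G39A) and 22.07 (Flag) in replicate 2, against 12.26 (Gadd45a), 17.86 (G39A) and 10.07 (Flag) in replicate 1. Only the Flag array of replicate 2 was well above background, so Sox12 was not tested and its level is otherwise only a bound.

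**Figure D2:**
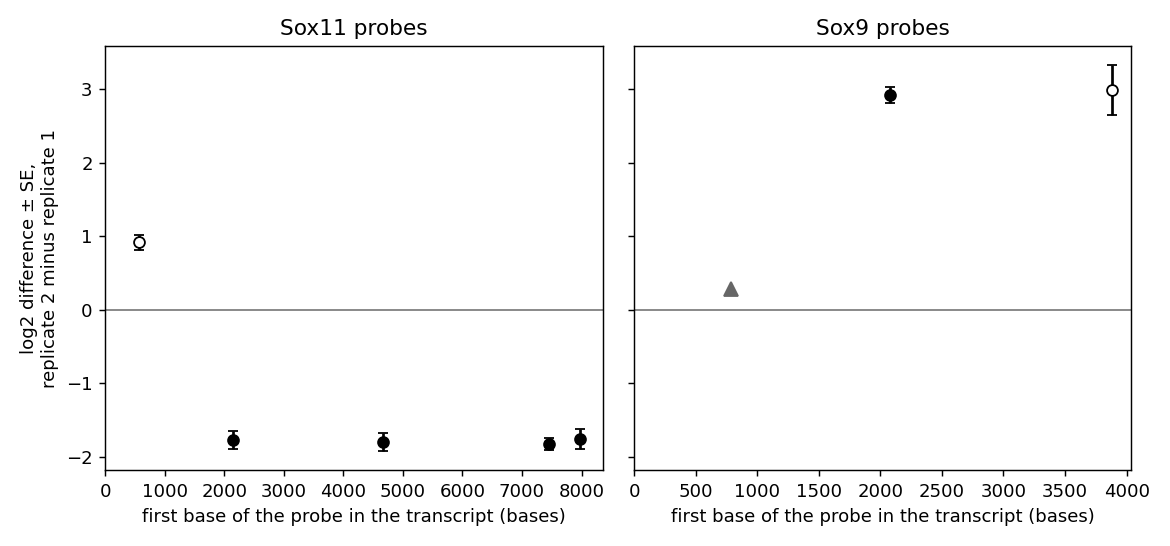
Log2 difference, replicate 2 minus replicate 1, with the SE of the limma fit (vertical) against the first base of each probe in the RefSeq transcript (horizontal, bases) for 5 Sox11 probes and 3 Sox9 probes; filled points were well above background on all 6 arrays, and the grey triangle is a lower limit with no SE, for a probe dim on all replicate 1 arrays. The Sox11 point at base 574 lies above 0 and the 4 others lie between -1.76 and -1.83, while the Sox9 points lie at 2.92 and 2.99 and the Sox9 limit at 0.29.

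Among the SoxD genes, Sox13 had the largest difference of the 17 tested probes. Its probe (chromosome 1, 135278934 to 135278993) read 69.99 (Gadd45a), 42.31 (G39A) and 52.82 (Flag) in replicate 2, against 985.1 (Gadd45a), 1226 (G39A) and 830.3 (Flag) in replicate 1. The log2 difference was -4.04 ± 0.20 (16.5-fold lower in replicate 2, limma adjusted p 0.000212). The replicate 2 and replicate 1 arrays did not overlap. The difference was -3.62 in Gadd45a, -4.57 in G39A and -3.93 in Flag, each from a single array of either number. Sox13 is known as a modulator of TCF1, the protein of Tcf7, in T cells.

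Sox6, which helps Sox9 in cartilage and also acts in red cell and muscle development, was lower in replicate 2 by all 4 probes tested. Its brightest probe, A_52_P282171 (chromosome 7, 122618380 to 122618439), read 145.6 (Gadd45a), 193.3 (G39A) and 221.2 (Flag) in replicate 2, against 1191 (Gadd45a), 1334 (G39A) and 1342 (Flag) in replicate 1. The difference was -2.63 ± 0.10 (6.2-fold lower, limma adjusted p 0.000126), with no overlap. The 3 dimmer probes gave -1.68 ± 0.08, -1.88 ± 0.15 and -2.41 ± 0.22. Each of these was well above background on all replicate 1 arrays but on only 1, 1 and 2 of the replicate 2 arrays, so their replicate 2 levels are partly bounds. The fifth probe, placed on a cDNA clone and not on the RefSeq transcript, was not well above background on any array.

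Sox5, the closest relative of Sox6 in the SoxD group, went the opposite way. The probe at the 3′ end of its transcript, A_52_P33147 (chromosome 6, 143777579 to 143777638, starting at base 6637), read 59.92 (Gadd45a), 94.3 (G39A) and 97.65 (Flag) in replicate 2, against 25.27 (Gadd45a), 54.79 (G39A) and 40.16 (Flag) in replicate 1. All replicate 2 arrays were higher, by 1.28 ± 0.11 on the log2 scale (2.43-fold, limma adjusted p 0.000916). The Gadd45a array of replicate 1 was not well above background. The 3 other Sox5 probes were well above background on 0, 0 and 1 of the 6 arrays and were not tested, so the call rests on this probe alone.

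Sox9, the SoxE factor that drives cartilage genes, was higher in replicate 2 by all 3 of its probes. Its brightest probe, A_52_P577484 (chromosome 11, 112647008 to 112647067, starting at base 2082), read 948.5 (Gadd45a), 1104 (G39A) and 1349 (Flag) in replicate 2, against 127.9 (Gadd45a), 206.1 (G39A) and 176.1 (Flag) in replicate 1. The groups of arrays did not overlap, and the difference was 2.92 ± 0.11 (7.59-fold, limma adjusted p 0.000107). Within groups it was 3.08 in Gadd45a, 2.70 in G39A and 2.99 in Flag.

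The second Sox9 probe, A_52_P214630, lies further 3′ (base 3883) and is printed on 10 spots. It read 94.5 (Gadd45a), 315 (G39A) and 341.4 (Flag) in replicate 2, against 24.93 (Gadd45a), 26.52 (G39A) and 43.93 (Flag) in replicate 1, a difference of 2.99 ± 0.34 (limma adjusted p 0.00232). Of its replicate 1 arrays only Flag was well above background. The HMG-box probe of Sox9 read 24.66 (Gadd45a), 27.45 (G39A) and 26.98 (Flag) in replicate 2 and was not well above background on any replicate 1 array. It was at least 1.22-fold higher in replicate 2, a lower limit that puts each replicate 1 array at no less than the dimmest signal it marked well above background. Its measured geometric means were 26.33 in replicate 2 and 6.55, a dim value, in replicate 1. The limma adjusted p of 0.00111 was computed on the measured signals, dim ones included, and not on the limit. The probe entered the test only through replicate 2, where it is bright.

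Of the SoxF genes, which act in endothelial cells, only Sox7 could be tested in this comparison. Its probe A_51_P476018 (chromosome 14, 64569419 to 64569478) read 36.37 (Gadd45a), 55.66 (G39A) and 65.6 (Flag) in replicate 2, against 26.29 (Gadd45a), 51.32 (G39A) and 35.19 (Flag) in replicate 1. The arrays overlapped between numbers, but each group was higher in replicate 2, and the difference was 0.67 ± 0.13 (limma adjusted p 0.0123). This call is the least firm of the 17: the adjusted p was 0.0671 without the group term, 0.0512 without the filter on dim probes and 0.0518 without the Gadd45a array of replicate 1. The other Sox7 probe was not well above background on any array.

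The 4 Sox17 probes, at bases 856 to 2576 of the transcripts they were designed on, read 4.373 to 11.64 in replicate 2, against 4.416 to 9.923 in replicate 1. None was well above background on any array, so these arrays give only an upper bound for Sox17. Sox18 (chromosome 2, 181404789 to 181404848) read 4.179 (Gadd45a), 30.51 (G39A) and 3.474 (Flag) in replicate 2, against 16.97 (Gadd45a), 26.55 (G39A) and 87.07 (Flag) in replicate 1. It was well above background on both G39A arrays and the Flag array of replicate 1 only. Sox18 did not enter the replicate test, since neither number had all 3 arrays above background.

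**Figure D3:**
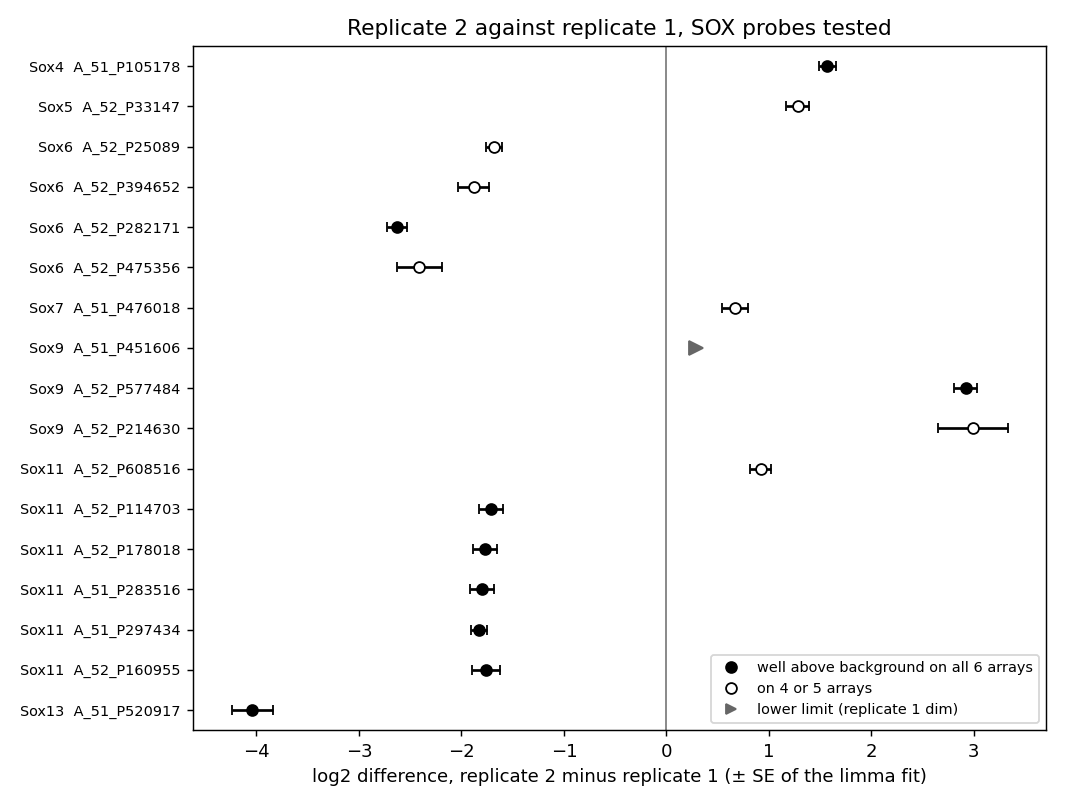
Log2 difference, replicate 2 minus replicate 1 (horizontal), with the SE of the limma fit, for the 17 SOX probes tested (rows); filled points were well above background on all 6 arrays and open points on 4 or 5, and the grey triangle is the lower limit of a Sox9 probe that was dim on all replicate 1 arrays. Points range from -4.04 (Sox13) to 2.99 (Sox9), and the Sox11 probe A_52_P608516 at 0.92 stands on the other side of 0 from the 5 other Sox11 probes.

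Genes that SOX factors are known to act on or with, and markers of other cells, also differed between the numbers, by the brightest probe of each gene (59.1% of 16044 genes passed, 33.8% higher and 25.3% lower in replicate 2, median 0.11). In a mixed culture, fewer cells of a type and less RNA per cell cannot be told apart. Of 10 tested cartilage genes, 7 were higher and 3 lower in replicate 2, with a median of 1.31. Col10a1, the collagen of hypertrophic cartilage, was at least 4.67-fold higher. The 3 lower ones were Col2a1, the main cartilage collagen and a known Sox9 target (-1.91 ± 0.10), Hapln1, a link protein of the matrix (-2.51 ± 0.09), and Cnmd, chondromodulin (at least 5.04-fold lower). Col2a1 read 942.1 (Gadd45a), 1015 (G39A) and 1228 (Flag) in replicate 2, against 3542 (Gadd45a), 5220 (G39A) and 4833 (Flag) in replicate 1, opposite in direction to Sox9. The adjusted p-values of these 4 genes in limma were 9.18e-05 to 0.000272, computed on the measured signals, also for the genes given as limits.

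The next list held factors with an HMG box related to that of SOX proteins, such as Lef1 and Tcf7, and their partner beta-catenin (Ctnnb1), which has no such box. Of its 6 tested genes, 3 were lower in replicate 2 and none higher (33.8% of all genes were higher), with a median of -0.23. Lef1 gave -3.19 ± 0.23 and Tcf7 -2.12 ± 0.09, and Tcf7l1 gave -0.32 ± 0.09 (limma adjusted p 0.000137 to 0.0316). Of 12 tested endothelial genes, 4 were higher and 5 lower (median -0.09). Among them Tek, the angiopoietin receptor, gave -5.08 ± 0.19 and Robo4 was at least 64.9-fold lower, while Egfl7 gave 3.09 ± 0.13 and the ETS factor Erg 2.99 ± 0.11. The defining endothelial markers Cdh5 and Pecam1 were not well above background on any array, and the summed signal of the 16 listed genes was 5599 to 6305 in replicate 2, against 4891 to 5336 in replicate 1. Of 5 tested endoderm genes, 2 were higher and 1 lower, and 6 listed ones, Foxa2 and Gata4 among them, were never well above background.

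Lists of other cell types also differed between the numbers. Of 7 tested neural genes, 6 were lower and 1 higher in replicate 2 (median -1.06). Stmn2, a microtubule regulator of neurons, gave -4.40 ± 0.13, and the summed neural signal was 6012 to 6733 in replicate 2, against 20100 to 22300 in replicate 1. Pax6, Elavl3 and Neurod1 were never well above background. Of 12 tested epithelial genes, 9 were lower and 1 higher (median -3.46), with Cdh1 at least 18.1-fold and Epcam at least 27.9-fold lower. Their summed signal was 4388 to 6579 in replicate 2, against 10440 to 11090 in replicate 1.

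Of 16 fibroblast genes, 11 were higher in replicate 2 and none lower (25.3% of all genes were lower), with a median of 2.20. Pdgfra gave 4.79 ± 0.09, and the summed signal was 1059000 to 1085000 in replicate 2, against 679400 to 846100 in replicate 1. Muscle genes were higher in 5 of 6 tested and lower in none, with summed signals of 17260 to 19480 in replicate 2, against 2506 to 3234 in replicate 1, though Myod1, Myf5, Myog and Ckm were never well above background. Neural crest genes were higher in 5 and lower in 2 of 9 tested, with sums of 16350 to 17640 in replicate 2, against 6718 to 7219 in replicate 1. Leukocyte genes were higher in 7 and lower in 2 of 10 tested, with sums of 5592 to 9508 in replicate 2, against 2248 to 2721 in replicate 1, and Ptprc was never well above background. Of 8 tested pluripotency genes, 2 were higher and 3 lower, and Pou5f1 was at least 228-fold lower in replicate 2. Summed signals, here and above, are weighted to the brightest genes of a list and do not measure a cell type. In replicate 2 Actc1 read 13400 to 14840, Snai2 12250 to 12350 and Lyz2 4038 to 7592. Each was the larger part of the muscle, neural crest or leukocyte sum there. The part of these cell type markers in the SOX differences was not tested.

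The genes closest in pattern to each SOX gene were ranked by the root mean square difference of 6 log2 values, each centred on its own mean, among 11916 genes bright on all arrays. Most of each pattern is the difference between the numbers, so likeness here largely means a like replicate difference. Sox4 was closest to Pear1, a platelet receptor (0.0322), and to the glycine transporter Slc6a9 (0.0385), and 173 genes lay within 0.15 of it. Sox9 was closest to Pcdhac2 (0.0847) and Adamts2 (0.0942), a protease of procollagens, with 7 genes within 0.15. Sox6 lay closest to Ablim1 (0.0699) and the growth factor receptor Fgfr3 (0.0763), and Sox11 to Arhgap44 (0.0941) and Madd (0.0947). For Sox13, 1 gene lay within 0.15, Nt5e (0.129), the surface enzyme CD73, followed by Pthlh (0.181), parathyroid hormone-like hormone.

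The study asked which genes Gadd45a regulates during reprogramming, and for the SOX genes no difference between groups passed the test. In each of the 3 comparisons 17 probes of 8 SOX genes were tested without a term for the replicate number (limma, 2 arrays against 2, 24148 probes) and 0 passed, as did 0% of all probes. No SOX probe had an unadjusted p under 0.05, which does not set them apart, since few of all probes did. Of the 24148 probes, it was 148, 126 and 165 for Gadd45a against Flag, G39A against Flag and Gadd45a against G39A. The median SOX difference was -0.36, -0.05 and -0.27 in the same order, beside -0.01, -0.02 and 0.00 over all probes. The SE of a SOX difference ran from 0.44 to 2.34, since it holds the gap between the numbers, so this fit could miss smaller differences. With the replicate number as a term the SE was 0.10 to 1.21 and still 0 SOX probes passed, with lowest adjusted p-values of 0.505, 0.991 and 0.573. In that fit 7, 2 and 3 of the 17 had an unadjusted p under 0.05, beside 1879, 721 and 2049 of the 24148 probes (7.78%, 2.99% and 8.49%). Those 7 include a probe each of Sox5, Sox6, Sox7 and Sox9 that was well above background on only 1 of the 2 Gadd45a arrays. Sox6 and Sox9 each enter by more than 1 probe, so the 7 are not independent. Groups did not overlap for 0, 0 and 2 SOX probes, beside 13.5%, 10.9% and 14.8% of all probes tested. The Gadd45a and G39A comparisons with Flag share the Flag arrays. The array's Gadd45a probe read 1870 (Gadd45a), 2147 (G39A) and 2309 (Flag) in replicate 2, against 560.1 (Gadd45a), 1395 (G39A) and 1017 (Flag) in replicate 1. It was lowest in the Gadd45a group in both numbers. By this probe the added Gadd45a was not seen, and whether the probe can detect it was not tested.

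Within each replicate number the 9 bright SOX probes differed by less than 2-fold between groups. Gadd45a minus Flag ran from -0.51 to 0.50 in replicate 2 and from -0.51 to 0.20 in replicate 1. G39A minus Flag ran from -0.52 to -0.10 in replicate 2 and from -0.21 to 0.36 in replicate 1. Gadd45a minus G39A ran from -0.35 to 0.79 in replicate 2 and from -0.60 to -0.01 in replicate 1. None of the 9 reached 2-fold in any of the 6 comparisons within a number, beside 0.393% to 1.87% of all 21637 bright probes. Against Flag, Gadd45a was lower in both numbers for 8 of the 9 probes (4 genes, 5 of the probes being Sox11) and higher in both for Sox13. Of all bright probes, 29.8% were lower in both. G39A was lower than Flag in both for 3 of 9, beside 27.2%. Gadd45a was lower than G39A in both for 5 of 9 (4 genes), beside 27.6%.

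**Figure D4:**
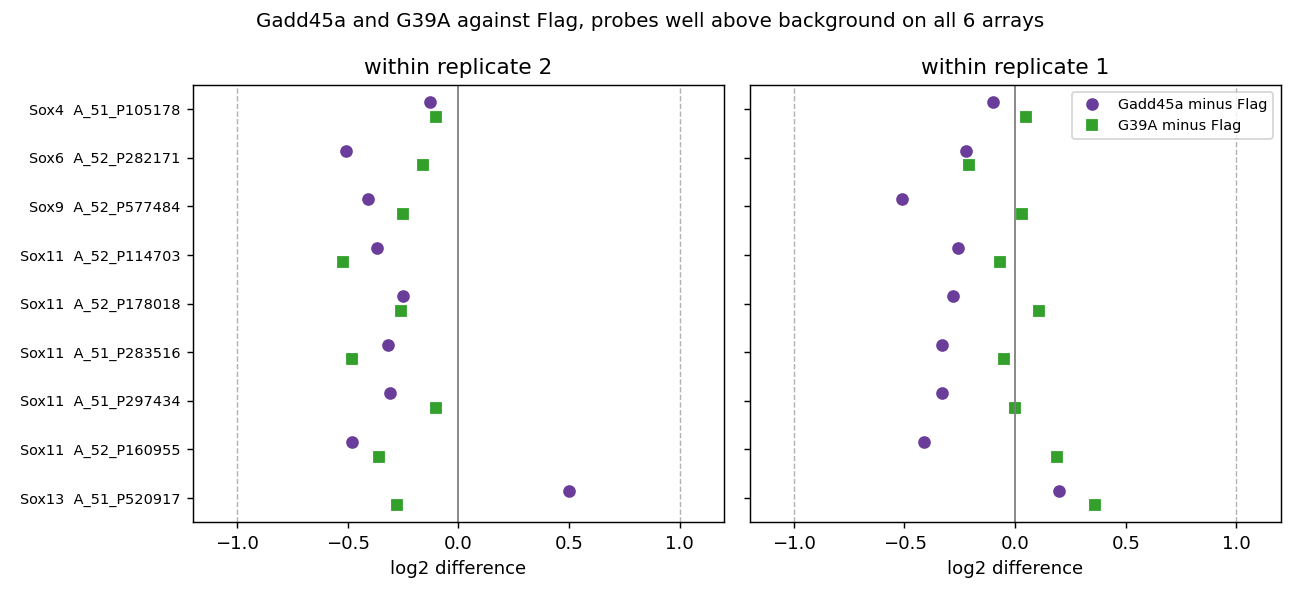
Log2 difference of Gadd45a minus Flag (purple circles) and G39A minus Flag (green squares) within replicate 2 (left) and within replicate 1 (right) for the 9 SOX probes well above background on all 6 arrays (rows); dashed lines mark 2-fold. All points lie inside the dashed lines, and the purple circles lie left of 0 except for Sox13.

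Sox9 showed how far such a difference depends on the probe. By A_52_P577484, Gadd45a minus Flag was -0.41 in replicate 2 and -0.51 in replicate 1, and G39A minus Flag was -0.25 and 0.03. By the 10-spot probe A_52_P214630, Gadd45a minus Flag was -1.76 in replicate 2, where all spots used were well above background, and G39A minus Flag was -0.08. The 9 unmarked Gadd45a spots there ran from 79.19 to 101.7, against 302.8 to 382.7 on the 10 Flag spots. Spots of one array are repeats of 1 sample and do not give the spread between samples. In replicate 1 neither the Gadd45a nor the G39A array was well above background by this probe. Its limma adjusted p for Gadd45a against Flag was 1 without and 0.626 with the replicate term.

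Sox5 and Sox7 were lower in Gadd45a than in both other groups within replicate 2. Sox5 by A_52_P33147 was -0.61 against Flag and -0.59 against G39A, and Sox7 by A_51_P476018 was -0.75 against Flag and -0.55 against G39A. In replicate 1 both probes were not well above background on the Gadd45a array, which had the highest lowest signal so marked (35.08, against 17.14 to 21.54 on the other arrays). Neither passed in the limma fit with the replicate term, with adjusted p-values of 0.534 to 0.586. Sox13 was higher in Gadd45a than in Flag by 0.50 and 0.20, and did not pass: the mean difference of 0.35 had an SE of 2.34 without the replicate term (limma adjusted p 1) and of 0.25 with it (0.76). Sox18 entered these tests through its G39A arrays and did not pass. Its Gadd45a arrays were both dim, so no difference is given.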

How the data were processed

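Per the file headers, the authors made the spot intensity values with Agilent Feature Extraction (version 10.7 per the submitters' processing notes): background-subtracted and detrended within the array, with a surrogate for dim spots, not normalized between arrays. Marks deposited with each spot (0 or 1) flag saturation, outliers and signals well above background. The deposited value table holds log2 values. Its columns followed their own array (lowest r 0.9989, against at most 0.9916 with another array), had medians of 6.17 and sorted values within 0.084 of each other, so scale and direction are settled, while how it was made is not given in the sources used here.

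From the scanner files, control and outlier-marked spots were left out and spots of a probe averaged. A probe counted as well above background when over 0.5 of its unmarked spots did. After log2, the 75th percentile of each array was subtracted. Of 41174 probes, 27668 were named by accession through a RefSeq gene table (GRCm38.p6, names only), and the others kept the files' name. Groups were taken from the sample labels. Comparisons used limma 3.58 in R 4.3 (lmFit, eBayes, all 6 arrays, every probe, Benjamini-Hochberg over all probes tested, threshold 0.05). The replicate comparison had group as a term and 2 residual degrees of freedom. The group comparisons had no covariate and 3, and tested probes that some group had well above background on both its arrays. Scripts were tested on simulated data. Median SEs were 0.102 for the replicate comparison and 0.313 for groups, or 0.123 with the replicate number as a term. The number of arrays limits the precision.

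Deviations of same-numbered arrays from their group means correlated at 0.90 to 0.905 for the 3 pairs of groups. The labels do not state a pairing, so the group fit reported first has no replicate term. From this check the numbers were taken to pair the arrays in the fit with that term and in the differences within a number. Named are all probes of the members, up to 4 genes of smallest p from each list, Pou5f1, Gadd45a, and the 2 genes closest in pattern to each bright member. A list's count uses the brightest probe of each gene. The SOX genes and lists were chosen with earlier results of these data known. Alternatives covered normexp, quantile normalization, the value table, the filter, 1 probe per gene, outlier spots, slide, terms and left-out arrays. The sequence of 1 probe is not reported here.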

Additional observations from a re-analysis of the deposited data

Results flagged for a closer look

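Sox18, a SoxF factor of endothelial cells, was the one SOX gene whose probe went opposite ways between replicate numbers in 2 groups that each had a signal well above background. Replicate 2 minus replicate 1 was 0.48 (log2) in G39A, with both arrays well above background, and at most -2.30 in Flag, where the replicate 2 array was dim and was set to its lowest signal well above background. In Gadd45a both arrays were dim. The difference between groups was not tested, and it rests on 1 probe with 1 spot per array.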

How the results depend on the processing

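All 7 SOX genes kept a called probe between replicate 2 and replicate 1 under normexp, quantile normalization, the authors' value table, 1 probe per gene and outlier spots kept. With no filter on dim probes the number was 7 with Sox7 lost and Sox12, dim on 5 of 6 arrays, called, and 10965 probes passed in all. The number was 6 with no group term (Sox7 lost), 5 where a probe had to be bright on all 6 arrays (Sox5 and Sox7 not tested), and 6 to 7 with an array left out. Calls over all probes, 14145 as reported, ran from 10463 to 11263 with an array left out. No sign turned for a tested SOX probe, and 217 of 220 single-probe results kept their side of the threshold, the 3 others being Sox7. Normexp gave smaller differences for the dimmer probes and for Sox13, with values beside the replicate comparison. Slide as a random block could not be fitted for this comparison. Between groups 0 SOX genes were called in any setting, and over all probes 0 except with slide as a random block, where 20 passed for Gadd45a against Flag and 3 for G39A against Flag. The replicate block gave 0 calls and changed no call. The differences within a number or group were added after seeing the data. Dim signals limit Sox12, Sox17 and Sox18, whose levels are bounds on most arrays.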

Other observations

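Other SOX family genes on the array were mostly dim. Of 9 such genes (14 probes), Sox1, Sox8, Sox14, Sox30 and Sry were not well above background on any array. Sox2 was so only on the Flag array of replicate 2 (21.87). Sox10, the SoxE factor of neural crest and glia, read 122.4 (Gadd45a), 99.78 (G39A) and 184.6 (Flag) in replicate 2, against 150.4 (Gadd45a), 120.3 (G39A) and 101.9 (Flag) in replicate 1, by probe A_51_P346704. Its difference of 0.27 ± 0.23 did not pass (limma adjusted p 0.351), and its other probe was dim on all arrays.

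Sox21, a SoxB factor known from chick to counteract relatives of Sox2 in neural progenitors, had probes that disagreed, as Sox11 did. Probe A_52_P326502 read 5.331 (Gadd45a), 5.467 (G39A) and 4.345 (Flag) in replicate 2, all dim, against 654.4 (Gadd45a), 692.3 (G39A) and 706.7 (Flag) in replicate 1, at least 31.1-fold lower in replicate 2. Probe A_52_P557911 read 48.75 (Gadd45a), 58.93 (G39A) and 59.08 (Flag) in replicate 2, against 20.82 (Gadd45a), 40.21 (G39A) and 21.87 (Flag) in replicate 1, a log2 difference of 1.25 ± 0.16 (limma adjusted p 0.0032). On the Gadd45a array of replicate 1 this probe was not well above background. The third Sox21 probe, A_52_P406411, was dim on all arrays. The Sox21 probes were looked at after their values were seen.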
